A study of Mus musculus with 12 samples.

Results

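The comparison was between macrophages of mice fed a high fat diet (HFD) and of mice fed chow, both taken before any lipopolysaccharide (LPS). It used 6 of the 12 libraries of the study, the 3 HFD and the 3 chow libraries at 0 h of LPS. The cells were peritoneal macrophages, resident and recruited phagocytes of the body cavity around the gut, taken from females. The labels give neither the strain nor the genotype of the mice, nor the length of feeding, their age or whether a library is 1 animal, so the p-values speak only of the scatter among these libraries, part or all of which may be technical. The title of the series names the pentose phosphate pathway, inflammation and hypercholesterolemia. The other 6 libraries were of the same diets after 24 h of LPS, and entered through the filter, the scaling, the choice of transcript and the shared estimate of the spread. RNA counts were tested gene by gene, each gene standing for its RefSeq transcript with the highest mean.

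Macrophages take up lipoprotein cholesterol by receptors and make their own through the mevalonate pathway. When sterol in the endoplasmic reticulum is plentiful, SREBP2, the transcription factor that switches on the pathway, is held back, while oxidised sterols activate the nuclear receptor LXR, which switches on cholesterol exporters. Resting macrophages also express interferon-stimulated genes at a low level, through a basal type I interferon signal carried in part by STAT2 and IRF9, and IRF7 amplifies that signal.

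The 6 libraries held 2360209 to 12335109 counts. HFD replicate 3 was the shallowest, with 9134888 in the next lowest library, and 3 counts equal 1.27 counts per 1000000 of the library total (CPM) in it against 0.243 to 0.328 in the others. HFD replicate 3 also stood apart: 357 of 8123 genes of at least 10 CPM differed in it by more than 1 log2 unit from the mean of the other 5 libraries, against 10 to 71 in each of the others. Its rank correlation with the other HFD libraries was 0.959 and 0.962, and chow libraries correlated with each other at 0.986 to 0.992. Transcripts without a gene symbol took 12.02% of its counts and 5.884% to 8.326% of those of the other 5 libraries. Most of this was a single transcript, with 11.8% in HFD replicate 3 and 5.638% to 8.074% in the others. General macrophage markers were detected in every library, with Lyz2 (9234 to 11048 CPM over the 6 libraries), Csf1r (814 to 1127), Itgam (747 to 954) and Adgre1, the gene of F4/80 (383 to 398 in chow and 179.8 to 309 in HFD, adjusted p = 0.496). Of the markers of large resident cavity macrophages, Gata6 was at 8.23 to 17.7 CPM and Timd4 at 0 to 1.66. Summed over all 25 large macrophage markers, the level was 14111 to 15014 CPM in chow and 13822 to 15246 in HFD, and most of it was Lyz2. As a share of the chow mean, the median of these markers stood at 66.8%, 97.9% and 75.4% in HFD replicates 1 to 3. In the chow libraries it was 97.8% to 108.0%. The estimate for HFD was lower in 17 of the 25, against 49.4% of all genes tested. For 16 markers of small macrophages and monocytes the summed level was 1966 to 2490 CPM in chow and 1270 to 1913 in HFD, which did not overlap, and most of it was fibronectin (Fn1). For 23 mesothelial and fibroblast markers it was 1444 to 3725 CPM in chow, highest in replicate 1, and 1219 to 2035 in HFD. For 12 dendritic cell markers it was 81.5 to 155 CPM against 59.7 to 84.1, and for 15 neutrophil markers, with Ly6g, Stfa2 and Stfa2l1 at 0, 152 to 174 against 109 to 163. T and NK cell markers, by contrast, summed to 745.9 to 851.4 CPM in chow and 761.5 to 983.5 in HFD, most of it Il7r. B cell markers summed to 166.4 to 268.5 CPM in chow and 207.7 to 251.7 in HFD, most of it Cd22. Adipoq, Plin1, Cidec and 3 other of the 10 adipocyte markers were at 0 counts. In such bulk RNA fewer cells of a type and less RNA per cell cannot be told apart, and the part of these cell types in the results below was not tested.

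Before LPS, 11 of 12638 genes tested differed between the diets, and all 11 fell in HFD. The threshold was a Benjamini-Hochberg adjusted p under 0.05 in edgeR's quasi-likelihood test, and 0.0870% of the genes passed it. They were 7 interferon-stimulated genes (Irf7, Oas3, Oasl2, Zbp1, Rtp4, Ifi27l2a and Ly6e), 3 genes of inflammatory effectors (Cfb, Ccl5 and Acod1), and Micall2. No gene higher in HFD passed edgeR's test, whereas 9 higher genes passed with DESeq2 and 1 with limma-voom. At an unadjusted p under 0.05 in edgeR, 778 genes (6.16%) differed, of which 303 (2.40%) were higher and 475 (3.76%) lower in HFD. The count of 11 became 7 without chow 0 h replicate 2 and 25 without HFD 24 h replicate 2, a library outside the comparison. Over all genes tested the median log2 fold change, HFD minus chow here and below, was 0.00, and 49.4% of genes were below 0.

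**Figure D1:**
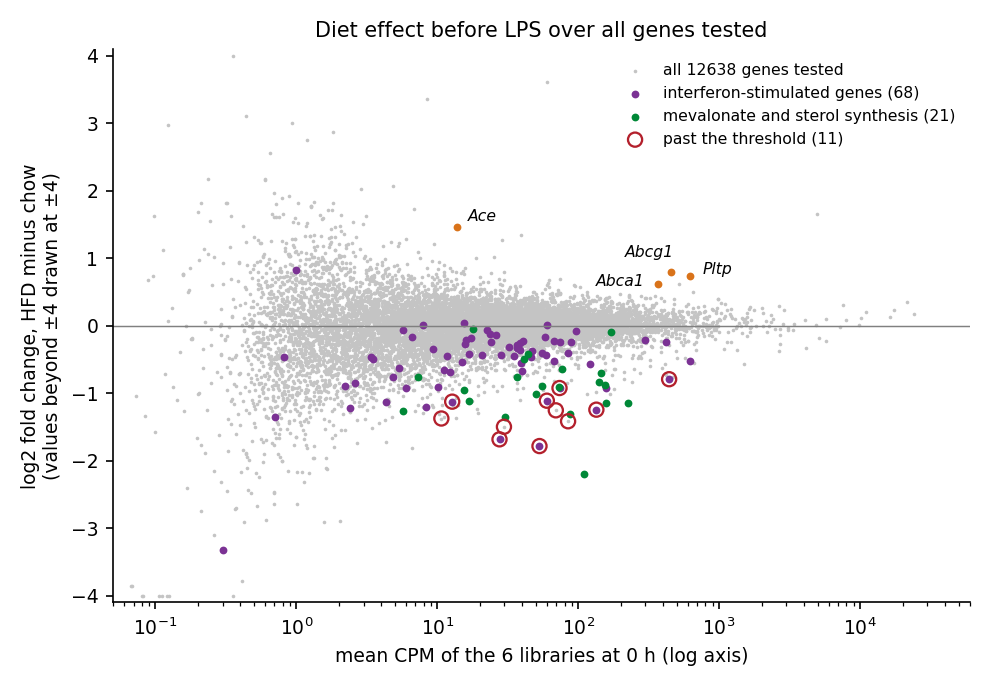
Log2 fold change between HFD and chow at 0 h (vertical axis) against the mean CPM of the 6 libraries (horizontal log axis) for the 12638 genes tested. The 11 genes past the threshold (red rings) all lie below 0, as do all 21 genes of mevalonate and sterol synthesis (green) and 63 of 68 interferon-stimulated genes (purple), while Ace, Abcg1, Pltp and Abca1 (orange, not past the threshold) lie above 0.

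IRF7, the transcription factor that amplifies type I interferon expression, had an mRNA level of 198, 182 and 187 CPM in chow replicates 1 to 3 and 57.7, 98.3 and 84.5 CPM in HFD replicates 1 to 3. The groups lay far apart, with HFD replicate 1 lowest, and Irf7 (chr7:141263183-141266499, gene spans here being those of RefSeq on GRCm38.p6) fell (log2 fold change -1.24 ± 0.17, adjusted p = 0.00291, with the error given as SE). Irf9 and Stat2 encode subunits of the complex that carries the interferon signal. Irf9 had 48.2, 45.98 and 45.99 CPM in chow and 34.2, 32.9 and 26.5 CPM in HFD and Stat2 had 49.1, 52.7 and 44.4 CPM in chow and 29.6, 27.8 and 36.9 CPM in HFD, with no overlap between the diets and log2 fold changes of -0.56 ± 0.13 and -0.66 ± 0.15, but neither passed edgeR's test (adjusted p = 0.22 and 0.172).

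Of the sensors of viral nucleic acid, 3 fell. Oas3 (chr5:120753098-120777684), which makes the 2',5'-oligoadenylate that activates RNase L, had 81.7, 75.4 and 87.2 CPM in chow replicates 1 to 3 and 36.9, 33.3 and 44.95 CPM in HFD replicates 1 to 3 (log2 fold change -1.11 ± 0.14, adjusted p = 0.00181). Oasl2 (chr5:114896926-114912245), a relative that binds double-stranded RNA, had 94.00, 90.4 and 106 CPM in chow and 58.1, 49.98 and 43.6 CPM in HFD (log2 fold change -0.92 ± 0.17, adjusted p = 0.0471). Zbp1 (chr2:173206612-173218959), a sensor of Z-form nucleic acid that can trigger necroptosis, had 20.5, 15.6 and 17.2 CPM in chow and 7.60, 9.80 and 5.84 CPM in HFD (log2 fold change -1.12 ± 0.18, adjusted p = 0.0162). The HFD libraries of all 3 genes, chosen by these values, lay below every chow library (all genes 6.36%). HFD replicate 3 was the lowest for Oasl2 and Zbp1 but the highest of the HFD libraries for Oas3. The call of Oas3 held under 26 of 27 alternative settings, ending only in a test for a change above 1.5-fold, whereas Oasl2 passed under 10 of the 27.

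All 15 interferon-induced sensors tested had a log2 fold change below 0 (all genes 49.4%), with a median of -0.45 that includes the 3 that fell. Besides these 3, 6 were lower at an unadjusted p under 0.05 (all genes 3.76%). Oas2 had 12.7, 11.9 and 15.6 CPM in chow and 8.43, 7.35 and 11.2 CPM in HFD and Ddx58, which encodes RIG-I, had 41.1, 38.6 and 42.9 CPM in chow and 30.1, 31.4 and 27.4 CPM in HFD, without overlap in either (log2 fold changes -0.65 ± 0.18 and -0.45 ± 0.16, adjusted p = 0.348 and 0.624). Ifih1, encoding the long double-stranded RNA sensor MDA5, was at -0.25 ± 0.16 and Oas1a at -0.24 ± 0.19. The Oas genes are close relatives, and the sources used here do not state how reads shared by copies were counted.

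The other interferon-stimulated genes that fell were Rtp4, Ifi27l2a and Ly6e. Rtp4 (chr16:23520219-23614222), first known as a chaperone of receptor transport, had 40.6, 39.3 and 48.6 CPM in chow replicates 1 to 3 and 12.5, 17.3 and 7.64 CPM in HFD replicates 1 to 3 (log2 fold change -1.68 ± 0.22, adjusted p = 0.00211). Ifi27l2a (chr12:103433873-103443680), a small mitochondrial membrane protein gene, had 83.3, 91.9 and 73.9 CPM in chow and 19.9, 33.3 and 16.6 CPM in HFD, the largest fall of the 11 (log2 fold change -1.78 ± 0.27, adjusted p = 0.0128). Ly6e (chr15:74955025-74959904), a surface protein that restricts coronavirus entry, was the most abundant of the 11, with 518, 577 and 586 CPM in chow and 308, 334 and 329 CPM in HFD (log2 fold change -0.79 ± 0.12, adjusted p = 0.0069). Rtp4 and Ifi27l2a were lowest in HFD replicate 3 and highest of the HFD libraries in replicate 2. The call of Ly6e ended without chow 0 h replicate 2, without HFD 0 h replicate 1 and in the test for a change above 1.5-fold, and held under the other 24 of 27 settings. Without HFD 0 h replicate 3 the calls of Ifi27l2a, Zbp1 and Oasl2 ended, and the other 8 genes passed.

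Over the list of 68 interferon-stimulated genes tested, 63 lay below 0, and the median log2 fold change was -0.43 (all genes 0.00). Of the 68, 33 were lower and 0 higher at an unadjusted p under 0.05 (all genes 3.76% and 2.40%), and the diets did not overlap in 33, all lower (all genes 6.36% lower and 5.86% higher). DESeq2 called 11 of the 68 and limma-voom 4, and without HFD 0 h replicate 3 edgeR called 4 with a median of -0.41. As a share of the chow mean, the median member stood at 65.0%, 79.7% and 70.2% in HFD replicates 1 to 3 and at 95.7% to 105.0% in the chow libraries, so that all 3 HFD libraries were low and replicate 2 the least. The IFIT genes, whose proteins bind viral RNA ends, were low in both diets: Ifit2 had 13.2, 12.4 and 11.1 CPM in chow and 5.20, 7.01 and 1.35 CPM in HFD and Ifit1 17.4, 10.4 and 17.05 CPM in chow and 6.14, 11.6 and 11.2 CPM in HFD, and 0 of 4 passed (median -1.21). The GTPases of the GBP and IRG families, which respond mainly to interferon gamma, had a median of -0.12 over 9 genes, with Gbp2 at -0.12 ± 0.26 and Irgm1 at -0.29 ± 0.19. Ifnb1, Ifna4 and Ifng had 0 counts in all 6 libraries. The receptor genes Ifnar1 (-0.29 ± 0.13) and Ifnar2 (-0.08 ± 0.12) and the kinase gene Jak1 (0.05 ± 0.13) did not pass, and the 25 genes of interferon ligands, receptors and signalling had a median of -0.01.

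The interferon-stimulated response element is the DNA site of the complex that holds STAT2 and IRF9 and of other IRF proteins, and was searched as 2 copies of GAAA with any 2 bases between them, on both strands, from 250 bases before to 50 after each start in the RefSeq promoters of GRCm38.p6. It was in 31 of 53 list members that had a promoter entry (58.5%), against 3.9% of 10033 tested genes and 4.0% of all 27025 promoters. Of the 11 genes that fell, 5 had an entry (Acod1, Oas3, Irf7, Micall2 and Oasl2), and of these the letters were in that of Oas3. The 150 bases before the start are printed for Oas3, which fell, and for Ifit1 and Oas1a, which hold the same letters and whose diets overlapped, with matches in capitals. They are written 5' to 3' on the gene's strand, on which a match of the other strand reads as 2 copies of TTTC.
Oas3: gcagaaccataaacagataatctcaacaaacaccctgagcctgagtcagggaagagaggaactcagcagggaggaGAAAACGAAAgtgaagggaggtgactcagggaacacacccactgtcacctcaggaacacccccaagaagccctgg
Ifit1: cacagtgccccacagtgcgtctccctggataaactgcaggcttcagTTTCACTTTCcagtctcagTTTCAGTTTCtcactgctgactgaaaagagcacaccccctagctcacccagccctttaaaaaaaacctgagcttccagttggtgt
Oas1a: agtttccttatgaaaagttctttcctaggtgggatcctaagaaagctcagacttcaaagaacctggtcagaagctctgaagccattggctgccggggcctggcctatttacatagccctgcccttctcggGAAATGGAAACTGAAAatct
The Oas3 window is chr5:120777660-120777809, minus strand, and its match begins 75 bases before the start. That of Ifit1 is chr19:34640739-34640888, plus strand, with matches on the opposite strand that begin 104 and 85 bases before the start. That of Oas1a is chr5:120907526-120907675, minus strand, with 2 overlapping matches that begin 20 and 14 bases before the start. The same letters thus stood in front of a gene that fell and of genes whose diets overlapped, and binding was not measured.

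**Figure D2:**
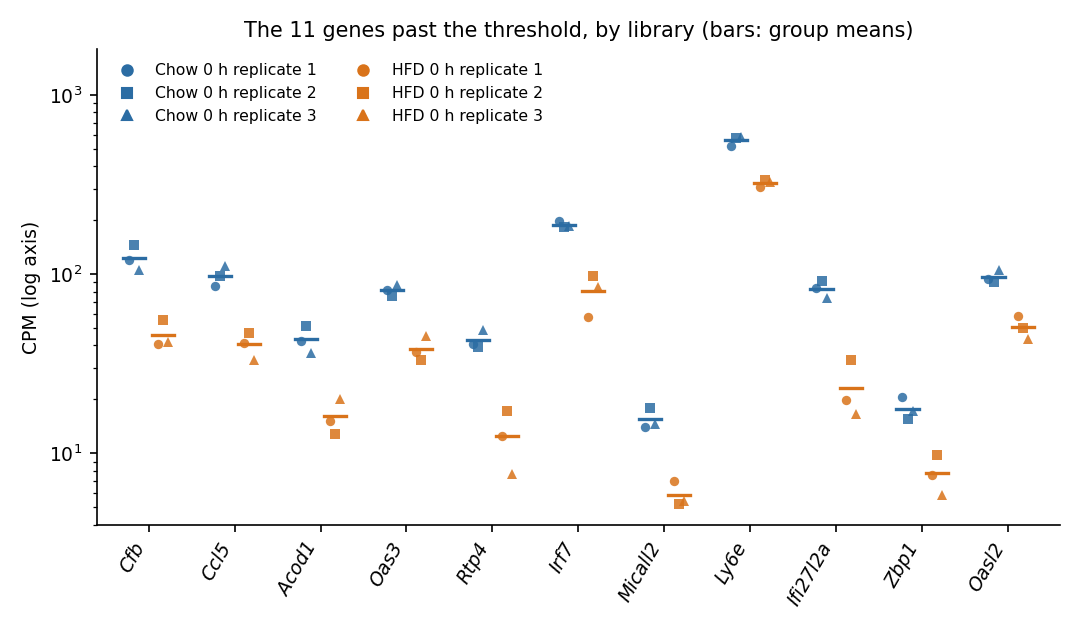
CPM (vertical log axis) of the 11 genes past the threshold in each of the 6 libraries at 0 h, with chow in blue, HFD in orange, a symbol for each replicate and a bar at each group mean. In all 11 genes every HFD library lies below every chow library, against 6.36% of all genes tested. The 11 were chosen by these same values, so the separation adds no support to them. Ly6e is the most abundant gene, with 308 to 334 CPM in HFD.

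Cfb, Ccl5 and Acod1 fell with them and had the smallest p-values together with Oas3. Cfb (chr17:34856374-34862514), complement factor B of the alternative pathway, had 119.8, 145 and 106 CPM in chow replicates 1 to 3 and 41.01, 55.2 and 41.8 CPM in HFD replicates 1 to 3 (log2 fold change -1.41 ± 0.16, adjusted p = 0.000984). Ccl5 (chr11:83525778-83530518), also called RANTES, a chemokine for T cells and monocytes, had 86.2, 97.95 and 111 CPM in chow and 41.3, 47.1 and 33.3 CPM in HFD (log2 fold change -1.25 ± 0.15, adjusted p = 0.00134). Acod1 (chr14:103047012-103056573), the enzyme that makes the antimicrobial metabolite itaconate, had 42.5, 51.5 and 36.3 CPM in chow and 15.2, 12.8 and 20.2 CPM in HFD (log2 fold change -1.496 ± 0.19, adjusted p = 0.00181). Every HFD library was below every chow library in the 3 genes, chosen by these values (all genes 6.36%). The HFD means were 37.2%, 41.3% and 37.0% of the chow means. These 3 calls and that of Rtp4 held, like that of Oas3, under 26 of 27 alternative settings. Micall2 (chr5:139706692-139736333), a Rab13 partner in the recycling of junction proteins, had 14.03, 17.9 and 14.6 CPM in chow and 6.97, 5.23 and 5.39 CPM in HFD (log2 fold change -1.37 ± 0.21, adjusted p = 0.0069), and its call ended under 5 settings other than the test for a 1.5-fold change, among them leaving out chow 0 h replicate 2.

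The counts of these and the following lists stand against the shares over all genes, 3.76% lower and 2.40% higher at an unadjusted p under 0.05. Of 17 complement genes tested 1 fell (Cfb) and 4 were lower at an unadjusted p under 0.05 (all genes 3.76%), with a median of -0.246 (-0.256 without HFD replicate 3). DESeq2 called 3 of them (C3, Cfb and C5ar1). C3, the central complement protein, had 366, 344 and 213 CPM in chow and 160.4, 191 and 167 CPM in HFD (log2 fold change -0.83 ± 0.18, adjusted p = 0.121), and chow replicate 3 was the lowest chow library. C3 is also one of the fibroblast markers, which had the same order among the chow libraries. C5ar1, the receptor of the C5a fragment, had 280.3, 263 and 265 CPM in chow and 170.3, 198 and 92.2 CPM in HFD (log2 fold change -0.79 ± 0.20, adjusted p = 0.266). Among 31 cytokine and chemokine genes, 1 fell (Ccl5), 8 were lower and 0 higher at an unadjusted p under 0.05 (all genes 3.76% and 2.40%), and the median was -0.41 (-0.363 without HFD replicate 3). DESeq2 called Ccl5 and Pf4. The platelet factor 4 gene Pf4 had 83.4, 71.8 and 104 CPM in chow and 48.1, 62.2 and 32.4 CPM in HFD (log2 fold change -0.82 ± 0.22, adjusted p = 0.279), and Cxcl16 was at -0.39 ± 0.12.

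Of 37 NF-kB feedback and effector genes, 2 fell (Cfb and Acod1), 10 were lower and 1 higher at an unadjusted p under 0.05 (all genes 3.76% and 2.40%), and the median was -0.225 (-0.295 without HFD replicate 3). DESeq2 called 6 lower genes (Acod1, Saa3, Marco, Clec4e, Clec4d and Cfb) and 1 higher gene (Nos2). Saa3, an acute phase protein, had 239, 264 and 167 CPM in chow and 86.2, 148 and 97.5 CPM in HFD, and Clec4e, the Mincle receptor for mycobacterial glycolipid, had 30.9, 44.3 and 29.5 CPM in chow and 15.7, 18.3 and 20.7 CPM in HFD, without overlap in either (adjusted p = 0.234 and 0.237). Tnf, by contrast, had 20.8, 24.3 and 26.2 CPM in chow and 23.7, 13.4 and 26.97 CPM in HFD (log2 fold change -0.21 ± 0.25, adjusted p = 0.982) and Tlr4, the LPS receptor, 144, 126 and 125 CPM in chow and 136, 149.9 and 71.9 CPM in HFD (log2 fold change -0.12 ± 0.20, adjusted p = 0.984), with HFD replicate 3 the low one for Tlr4. Il1b was under 1.4 CPM in all 6 libraries. Il6 had 0 counts in chow and 1 in HFD. Nos2, inducible nitric oxide synthase, had 0 counts in each chow library and 0, 7 and 3 in HFD replicates 1 to 3 (adjusted p = 0.746 with edgeR and 0.0433 with DESeq2), which is too few for a fold.

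Of 21 genes of mevalonate and sterol synthesis 0 passed edgeR's test, and their fold changes all pointed to lower levels in HFD. All 21 lay below 0, with a median log2 fold change of -0.89 (all genes 0.00). At an unadjusted p under 0.05, 17 of 21 were lower and 0 higher (all genes 3.76% and 2.40%), and in 18 of 21 the diets did not overlap, all lower (all genes 6.36%). DESeq2 called 8 of them, limma-voom 0, and edgeR 8 when HFD 24 h replicate 2 was left out and 0 when HFD 0 h replicate 3 was, with a median of -1.055 in the latter. The median member stood at 60.4%, 39.9% and 57.9% of the chow mean in HFD replicates 1 to 3 and at 92.3% to 105.3% in the chow libraries. HFD replicate 2, nearest to chow for interferon-stimulated genes, was thus the farthest from it for sterol genes.

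The early steps, from acetyl-CoA to farnesyl diphosphate, had a median of -0.93 over 8 genes. Hmgcs1, which condenses acetoacetyl-CoA with acetyl-CoA, had 309.7, 317 and 306 CPM in chow replicates 1 to 3 and 192, 101 and 127 CPM in HFD replicates 1 to 3 (log2 fold change -1.15 ± 0.23, adjusted p = 0.0852). Pmvk, phosphomevalonate kinase, had 21.6, 21.97 and 17.9 CPM in chow and 10.9, 10.2 and 10.3 CPM in HFD (log2 fold change -0.96 ± 0.20, adjusted p = 0.121). The 3 HFD libraries of Pmvk were nearly equal, while in Hmgcs1 replicate 2 was lowest. Acat2 (-1.12 ± 0.33), Mvd (-0.90 ± 0.31) and Fdps (-1.01 ± 0.30) had adjusted p-values of 0.406, 0.593 and 0.409. Mvk, mevalonate kinase, was the 1 of these 8 genes with overlapping diets, at 55.01, 42.98 and 43.6 CPM in chow and 28.5, 20.6 and 58.4 CPM in HFD, where HFD replicate 3 was the highest of the 6 libraries. Ggps1, which makes geranylgeranyl diphosphate on a side branch, was at -0.04 ± 0.24.

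The steps from squalene to cholesterol had a median of -0.88 over 12 genes. Hsd17b7, a 3-ketosteroid reductase of the pathway, had 45.5, 44.7 and 39.8 CPM in chow and 19.98, 12.7 and 19.3 CPM in HFD (log2 fold change -1.35 ± 0.26, adjusted p = 0.069). Sqle, squalene epoxidase, a control point of the pathway, had 129, 127 and 114 CPM in chow and 54.5, 32.2 and 66.98 CPM in HFD (log2 fold change -1.30 ± 0.28, adjusted p = 0.163). In both genes each HFD library was below each chow library, with replicate 2 again lowest. Cyp51, the lanosterol demethylase, was at -1.14 ± 0.27 (adjusted p = 0.222), Msmo1 at -0.88 ± 0.19 (0.139), Sc5d at -0.69 ± 0.16 (0.177) and Tm7sf2 at -1.27 ± 0.33 (0.272). Fdft1, the squalene synthase at the head of this branch, had 149, 178 and 206 CPM in chow and 194, 200.3 and 102 CPM in HFD, which overlapped (log2 fold change -0.09 ± 0.22, adjusted p = 0.987).

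**Figure D3:**
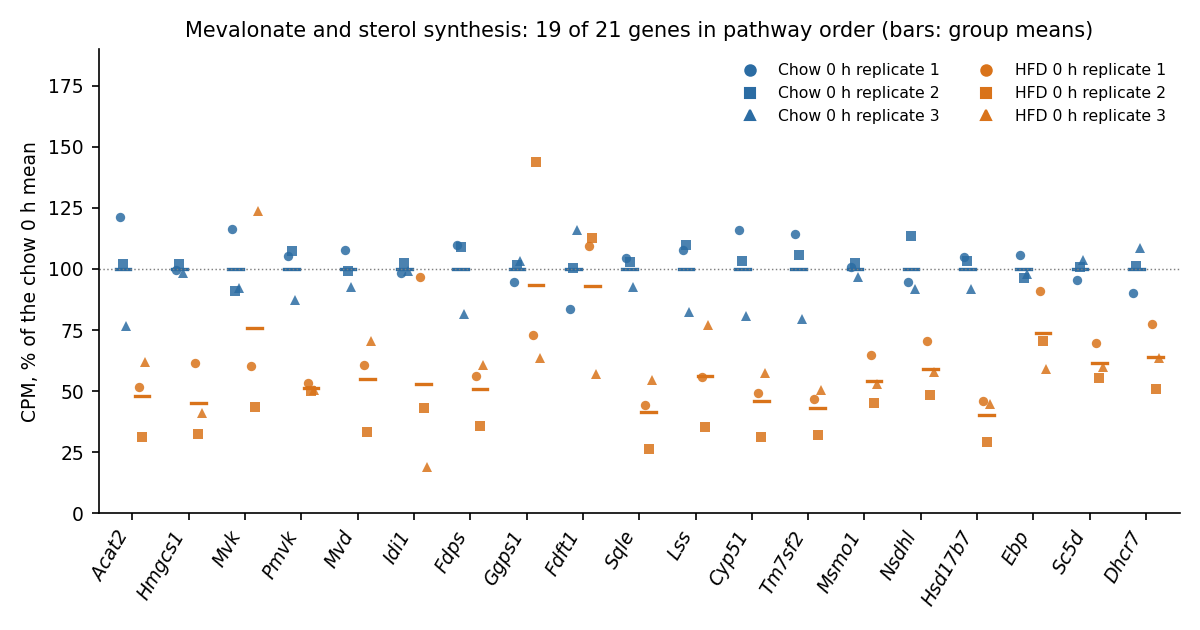
CPM of 19 of the 21 genes of mevalonate and sterol synthesis as a percentage of the chow 0 h mean (vertical axis, from 0), in pathway order from Acat2 to Dhcr7, with a symbol for each of the 6 libraries and a bar at each group mean. The diets do not overlap in 16 of the 19, all lower in HFD (all genes 6.36%), Mvk, Ggps1 and Fdft1 being the exceptions. None of the genes passed edgeR's test. HFD replicate 2 (orange squares) is the lowest library in most genes.

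SREBP2 acts at sterol regulatory elements together with NF-Y, which binds the CCAAT box. This motif, searched on both strands, was in the promoters of 15 of 16 sterol genes with an entry (93.8%), against 43.0% of 10033 tested genes, and in the same 15 of 16 within 150 bases before the start, against 31.8%. In the wider window it was also in 87.5% of MHC class II genes and 85.7% of unfolded protein and integrated stress response genes. The median log2 fold changes of these lists were -0.1 and -0.062. The lowest share of a list was 18.2%, for complement. The core CACCCCAC of a classical sterol regulatory element was in 2 of 16 (12.5%, Acat2 and Hmgcs1), against 3.7% of tested genes, and other forms of the element were not searched. The 150 bases before the start are printed for Hmgcs1, which holds both motifs, and for Hsd17b7, Msmo1, Pmvk and Cyp51, among the genes with the smallest p-values of the list, with matches in capitals, 5' to 3' on the gene's strand. A match on the other strand reads ATTGG.
Hmgcs1: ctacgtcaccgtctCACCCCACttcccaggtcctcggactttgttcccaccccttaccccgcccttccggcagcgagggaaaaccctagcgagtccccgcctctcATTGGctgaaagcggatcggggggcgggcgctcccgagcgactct
Hsd17b7: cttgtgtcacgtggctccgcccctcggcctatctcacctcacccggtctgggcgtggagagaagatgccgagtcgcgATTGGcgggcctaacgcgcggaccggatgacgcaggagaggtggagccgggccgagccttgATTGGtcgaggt
Msmo1: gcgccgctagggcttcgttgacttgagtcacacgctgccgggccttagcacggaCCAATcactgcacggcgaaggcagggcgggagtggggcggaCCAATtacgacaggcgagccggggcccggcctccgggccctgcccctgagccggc
Pmvk: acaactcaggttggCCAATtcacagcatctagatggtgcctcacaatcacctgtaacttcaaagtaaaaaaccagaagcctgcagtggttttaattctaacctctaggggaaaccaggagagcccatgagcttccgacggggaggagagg
Cyp51: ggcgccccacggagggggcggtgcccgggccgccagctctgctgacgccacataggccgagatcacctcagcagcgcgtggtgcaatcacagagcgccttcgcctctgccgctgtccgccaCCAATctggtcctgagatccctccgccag
The windows are chr13:119690201-119690350, plus strand, for Hmgcs1, chr1:169969206-169969355, minus strand, for Hsd17b7, chr8:64733579-64733728, minus strand, for Msmo1, chr3:89454391-89454540, plus strand, for Pmvk, and chr5:4104698-4104847, minus strand, for Cyp51. In Hmgcs1 the CACCCCAC begins 136 bases before the start and the CCAAT of the other strand 45 bases before it. Hsd17b7 and Msmo1 each hold CCAAT at 2 places, which begin 73 and 12 bases before the start in Hsd17b7 and 96 and 55 in Msmo1. Pmvk and Cyp51 hold it once, 136 and 29 bases before the start. A match is a stretch of letters, and binding was not measured.

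Regulators of the pathway were also measured. Insig1, an SREBP2 target that retains the SREBP2 escort SCAP in the endoplasmic reticulum, had 111, 115 and 96.2 CPM in chow and 62.9, 46.5 and 72.4 CPM in HFD (log2 fold change -0.84 ± 0.20, adjusted p = 0.22). Srebf2, the gene of SREBP2, had 295, 302 and 263 CPM in chow and 201, 145 and 353 CPM in HFD, with HFD replicates 1 and 2 below and replicate 3 above all chow libraries (log2 fold change -0.32 ± 0.29, adjusted p = 0.956). Scap (0.21 ± 0.15), Insig2 (0.21 ± 0.20) and Srebf1 (0.12 ± 0.20) lay slightly above 0. Over the 15 genes of SREBP2 control and sterol uptake tested, 0 passed, 6 were lower and 0 higher at an unadjusted p under 0.05, and the median was -0.22. DESeq2 called 1 (Insig1).

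Genes of fatty acid synthesis, elongation and desaturation were mostly below 0, 18 of 21, with a median of -0.477 (-0.476 without HFD replicate 3). None passed, 11 were lower and 0 higher at an unadjusted p under 0.05 (all genes 3.76% and 2.40%), 9 did not overlap, all lower (all genes 6.36%), and DESeq2 called 3 (Elovl6, Acsl3 and Scd2). Elovl6, which elongates palmitate to stearate, had 22.9, 20.03 and 16.1 CPM in chow and 9.78, 6.12 and 6.29 CPM in HFD (log2 fold change -1.37 ± 0.27, adjusted p = 0.0723). Acsl3, an acyl-CoA synthetase of lipid droplets, had 25.8, 32.03 and 25.3 CPM in chow and 15.9, 8.35 and 8.54 CPM in HFD (log2 fold change -1.29 ± 0.27, adjusted p = 0.121). Scd2, a desaturase that makes oleate, had 276, 256 and 170.4 CPM in chow and 133, 99.4 and 137 CPM in HFD (log2 fold change -0.93 ± 0.21, adjusted p = 0.172). Fads1, the delta-5 desaturase, was at -0.63 ± 0.17 and Acly, which supplies cytosolic acetyl-CoA, at -0.43 ± 0.14. Fasn, fatty acid synthase, had 180.0, 164 and 117 CPM in chow and 76.9, 38.1 and 120.5 CPM in HFD, so that HFD replicate 3 overlapped with chow (log2 fold change -1.02 ± 0.39, adjusted p = 0.703).

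**Figure D4:**
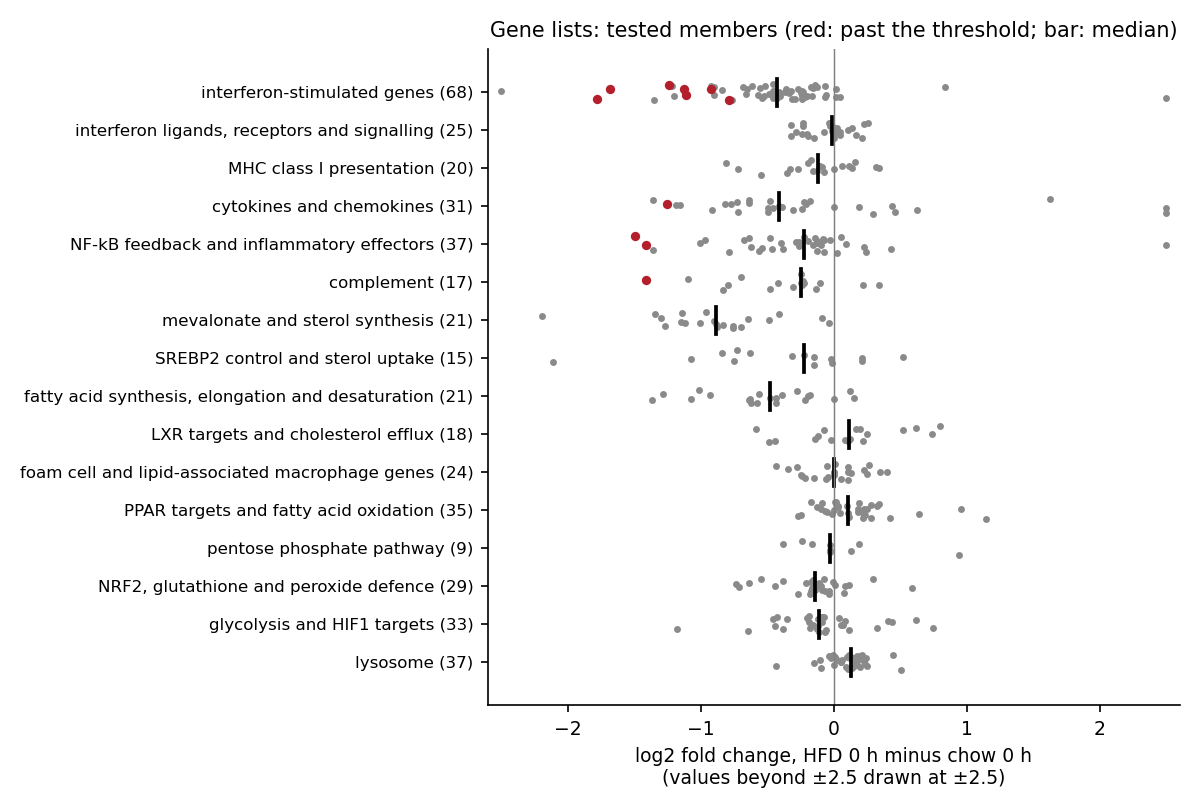
Log2 fold change between HFD and chow at 0 h (horizontal axis) for the tested members of 16 gene lists, with the number tested in brackets, a black bar at the median and red points for genes past the threshold. Among these 16 lists, mevalonate and sterol synthesis has the lowest median (-0.89), followed by fatty acid synthesis (-0.48), interferon-stimulated genes (-0.43) and cytokines and chemokines (-0.41), while LXR targets (0.11), genes of PPAR and fatty acid oxidation (0.11) and lysosome genes (0.13) have medians above 0. Cell type marker lists are not drawn, and their medians ran from -0.548 (mesothelial cell and fibroblast) to 0.177 (neutrophil). Those of dendritic cell (-0.521), small macrophage and monocyte (-0.452) and B cell markers (-0.437) also lay below the median of interferon-stimulated genes (-0.431).

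Genes of 3 cholesterol and phospholipid transporters were on the other side of 0. Abcg1, which exports cholesterol to HDL, had 309, 326 and 365 CPM in chow replicates 1 to 3 and 562, 675 and 499 CPM in HFD replicates 1 to 3 (log2 fold change 0.80 ± 0.20, adjusted p = 0.222). Abca1, which exports it to lipid-poor apolipoprotein A-I, had 299.8, 265 and 309 CPM in chow and 408, 595 and 337 CPM in HFD (log2 fold change 0.62 ± 0.16, adjusted p = 0.279). Pltp, the phospholipid transfer protein, had 446, 411 and 549 CPM in chow and 791, 948 and 600.1 CPM in HFD (log2 fold change 0.74 ± 0.18, adjusted p = 0.222). All 3 were higher in each HFD library than in each chow library and highest in HFD replicate 2, the library lowest for sterol synthesis, yet edgeR called none of them and DESeq2 called all 3. Of 18 LXR targets and efflux genes tested, these 3 were the only ones higher at an unadjusted p under 0.05, and 1 was lower. That gene was Scarb1, the HDL receptor SR-BI (125, 119 and 118 CPM in chow and 92.5, 74.4 and 73.7 CPM in HFD, log2 fold change -0.58 ± 0.15, adjusted p = 0.272). The median of the list was 0.114, and 0.189 without HFD replicate 3.

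Foam cell genes had a median near that of all genes (0.00 over 24 genes, 0.116 without HFD replicate 3, 2 lower and 2 higher at an unadjusted p under 0.05, 0 past the threshold with edgeR, DESeq2 or limma-voom). Gpnmb, a glycoprotein of lipid-laden macrophages, had 18858 ± 2181 CPM in chow and 24036 ± 2048 CPM in HFD (SD, n = 3), and Trem2, a lipid-sensing receptor, had 849, 794 and 888 CPM in chow and 987, 1117 and 1234 CPM in HFD (log2 fold changes 0.35 ± 0.13 and 0.40 ± 0.14, adjusted p = 0.61 and 0.62). The scavenger receptor Msr1 was at -0.43 ± 0.14 and osteopontin, Spp1, at -0.28 ± 0.12. Of 35 PPAR and fatty acid oxidation genes 3 were higher and 0 lower at an unadjusted p under 0.05, and 0 passed with the 3 tools. Angptl4, a lipoprotein lipase inhibitor and PPAR target, had 7.53, 7.30 and 6.49 CPM in chow and 11.4, 17.3 and 12.1 CPM in HFD, without overlap (log2 fold change 0.95 ± 0.26, adjusted p = 0.311).

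The pentose phosphate pathway, named in the title, makes NADPH and ribose phosphate from glucose 6-phosphate. G6pdx, its entry enzyme, had 190.4, 201 and 248.7 CPM in chow and 249.5, 190.2 and 126 CPM in HFD, which overlapped (log2 fold change -0.16 ± 0.19, adjusted p = 0.98). Pgd, the next NADPH-forming enzyme, had 627, 605 and 619 CPM in chow and 555, 457 and 559.6 CPM in HFD (log2 fold change -0.24 ± 0.14, adjusted p = 0.889). Tkt, the transketolase of the non-oxidative branch, had 550.4, 560.3 and 567 CPM in chow and 477, 299 and 517 CPM in HFD (log2 fold change -0.38 ± 0.18, adjusted p = 0.801). The diets did not overlap in Pgd and Tkt, and HFD replicate 2 was lowest in both. Over 9 genes of the pathway the median was -0.03, 1 was lower (Tkt) and 1 higher (Shpk, under 10 CPM) at an unadjusted p under 0.05, and 0 passed with edgeR, DESeq2 or limma-voom. Of 29 genes of NRF2, glutathione and peroxide defence 5 were lower and 0 higher at an unadjusted p under 0.05, 0 passed, and DESeq2 called 1, the peroxidase gene Prdx1 (824, 779 and 756 CPM in chow and 605, 552 and 457 CPM in HFD, log2 fold change -0.55 ± 0.14, adjusted p = 0.275). Of 9 NADPH oxidase subunits 1 was lower and 0 higher, and Cybb, the catalytic subunit of phagocytes, had 1495 ± 239.8 CPM in chow and 1172 ± 96.6 CPM in HFD (log2 fold change -0.35 ± 0.18, adjusted p = 0.831).

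In the remaining lists 0 genes passed. At an unadjusted p under 0.05, 4 of 20 MHC class I genes were lower and 0 higher, with a median of -0.116, and DESeq2 called 1 of them, H2-Q7, whose close copies could share reads. Of 13 MHC class II genes 0 were lower or higher, with 0 past the threshold by DESeq2 or limma-voom as well. Of 24 scavenger and efferocytosis receptors 7 were lower and 0 higher, with a median of -0.066, of which DESeq2 called Marco and Scarb1. Of 33 genes of glycolysis and HIF1 targets 2 were lower and 1 higher, with a median of -0.111, and DESeq2 called Aldoc, an aldolase gene (log2 fold change -1.18 ± 0.29, adjusted p = 0.229). Of 37 lysosome genes 1 was lower and 1 higher, and 30 lay above 0, with a median of 0.125, and 0 passed by DESeq2 or limma-voom.

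Among the 10 genes next in order of p, 1 was higher in HFD. These 10 were taken from genes without overlap whose higher group averaged at least 10 CPM, which Ace met through HFD alone. Ace, angiotensin-converting enzyme, had 6.26, 7.14 and 8.90 CPM in chow replicates 1 to 3 and 18.6, 24.4 and 17.98 CPM in HFD replicates 1 to 3 without overlap (log2 fold change 1.46 ± 0.28, adjusted p = 0.069). It passed under 10 of 27 alternative settings, among them limma-voom and DESeq2. Trex1, the exonuclease that degrades cytosolic DNA, had 27.8, 24.6 and 31.7 CPM in chow and 16.2, 17.4 and 11.7 CPM in HFD (log2 fold change -0.84 ± 0.16, adjusted p = 0.069). Marco, a scavenger receptor for bacteria, had 15.7, 19.9 and 14.4 CPM in chow and 5.41, 9.35 and 2.70 CPM in HFD (log2 fold change -1.36 ± 0.27, adjusted p = 0.0733), and Lyz1, a lysozyme gene, had 46.1, 48.00 and 51.3 CPM in chow and 23.5, 32.3 and 17.98 CPM in HFD (log2 fold change -0.94 ± 0.19, adjusted p = 0.0852). The HFD libraries lay below the chow libraries in the last 3 genes, with HFD replicate 3 lowest in each.

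The 5 genes with the largest positive fold changes and no overlap were taken from those whose higher group averaged 10 CPM or more. A gene could thus enter through HFD alone, as Myo18b and Ace (described above) did. Mir6236 had 2869, 1572 and 2732 CPM in chow and 3452, 2942 and 16252 CPM in HFD, Rpl6, a ribosomal protein gene, 17.4, 14.9 and 16.1 CPM in chow and 18.3, 31.2 and 53.9 CPM in HFD, and Myo18b, an unconventional myosin gene, 4.76, 4.05 and 7.57 CPM in chow and 9.68, 9.02 and 21.6 CPM in HFD. All 3 were highest in HFD replicate 3 and none passed (adjusted p = 0.81, 0.467 and 0.475). In Tspan7, a tetraspanin gene, HFD replicate 3 was the lowest HFD library, with 14.03, 10.9 and 13.7 CPM in chow and 31.6, 27.1 and 16.2 CPM in HFD (log2 fold change 0.999 ± 0.25, adjusted p = 0.222). Retnlg, a resistin-like gene of neutrophils, had 11.4, 9.08 and 11.6 CPM in chow and 2.08, 5.34 and 0 CPM in HFD (log2 fold change -1.81 ± 0.55, adjusted p = 0.443), and 0 in HFD replicate 3 is below what 3 counts give there. Bgn, the matrix proteoglycan biglycan and a fibroblast marker, had 237, 169.9 and 123 CPM in chow and 94.1, 86.6 and 87.2 CPM in HFD (log2 fold change -0.98 ± 0.24, adjusted p = 0.22).

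After 24 h of LPS, in libraries that share none with the 0 h comparison, the 11 genes had diet effects between -0.60 and -0.01, all smaller than at 0 h and none past the threshold. The 11 were chosen by their 0 h values, so smaller effects at 24 h can come from that choice alone. The differences between the times given below use the same 0 h values. Of 12638 genes 1 differed between the diets at 24 h (0.00791%), and 993 (7.86%) were at an unadjusted p under 0.05. That gene was Mamdc2, named here after its values were seen, which was higher in HFD at 24 h and at 0 h had a log2 fold change of 0.62 ± 0.15 (adjusted p = 0.222). Cfb was at -0.04 ± 0.15 and Ccl5 at -0.01 ± 0.14, which is a difference between the times of 1.37 ± 0.21 and 1.24 ± 0.20, with an adjusted p of 0.0805 for the difference in both. Oas3 was at -0.02 ± 0.13 and Irf7 at -0.12 ± 0.16, with adjusted p = 0.133 and 0.395 for the difference. The labels use the same numbers for libraries at both times, which the test of the difference did not use. No gene passed that test, and 297 (2.35%) were at an unadjusted p under 0.05. The sterol genes had a median of -0.39 at 24 h and the interferon-stimulated genes -0.16. Ace (1.36 ± 0.32), Abcg1 (1.17 ± 0.20), Pltp (0.68 ± 0.18) and Abca1 (0.54 ± 0.16) kept the direction they had at 0 h. In the labels all 3 chow libraries and 1 of the 3 HFD libraries at 24 h carry the tag L008, which the 0 h libraries do not, and its part in the values at 24 h was not tested.

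**Figure D5:**
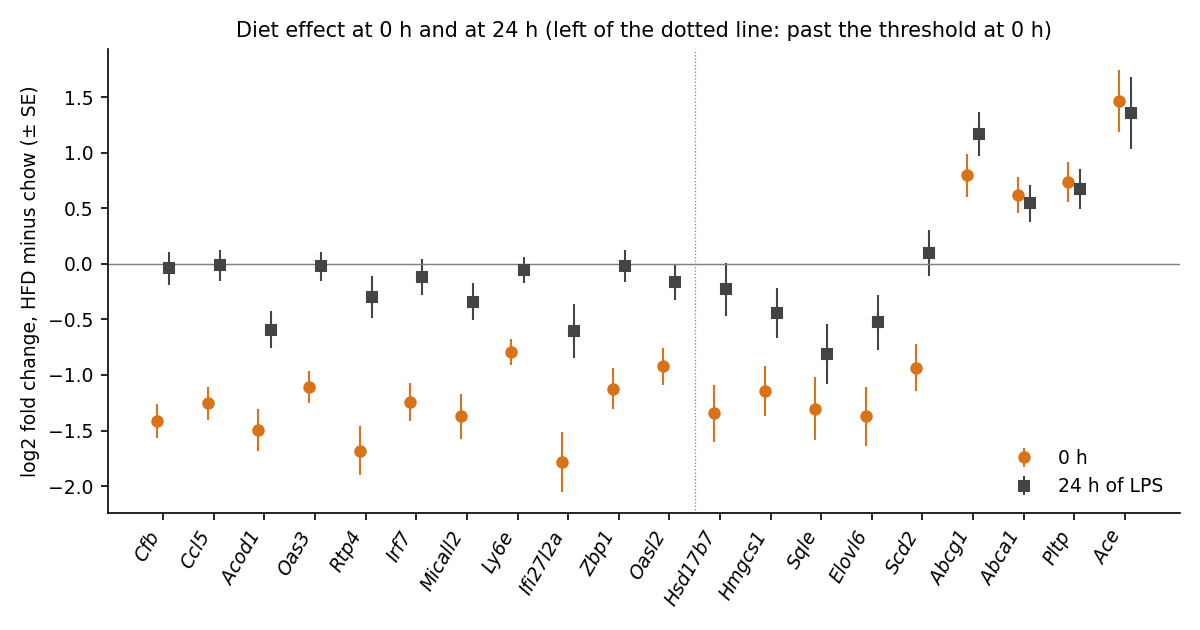
Log2 fold change between HFD and chow (vertical axis) with its SE at 0 h (orange circles) and after 24 h of LPS (grey squares) for the 11 genes past the threshold at 0 h, left of the dotted line, and 9 further genes. The 11 genes lie between -1.78 and -0.79 at 0 h and between -0.60 and -0.01 at 24 h, and no difference between the times passed its test. The 11 were chosen by their 0 h values, so smaller effects at 24 h can come from that choice alone.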

How the data were processed

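RNA of peritoneal macrophages was extracted with a column kit and made into libraries with a NuGen Ovation kit, per the labels' protocols. CASAVA 1.8.2, STAR 2.5.2b and mm10 are named in the submitters' processing notes. Which counter, annotation and strand setting were used is not stated in the sources here. The authors deposited raw read counts per RefSeq transcript. Of 35745 identifiers, 35440 were matched to a symbol in the RefSeq gene table and 188 in the GENCODE table, and 117 had none. The identifier with the highest mean stood for each symbol, giving 24558 genes, and 0 columns were left unused.

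The 12 libraries were fitted with 4 group means by edgeR 4.0.16 (R 4.3.3) with TMM factors, filterByExpr (12638 genes) and the robust quasi-likelihood test, with Benjamini-Hochberg adjustment over all genes tested. The common biological coefficient of variation was 18%. CPM are counts per 1000000 of the TMM-scaled total. The SE is the log2 fold change divided by the root of F, so it is not independent of p. DESeq2 1.42.0 and limma 3.58.1 (voom) were alternatives, with other scalings, filters, rows, a replicate term and each library left out. On simulated counts for this comparison (12476 genes), 96 of 100 genes changed by 1 log2 unit and 100 of 100 changed by 1.5 were recovered, with 9 false calls. The changed genes averaged at least 10 CPM, and the simulated spread followed only the trend with expression. Neither a spread of each gene's own nor an HFD replicate 3 that stands apart was simulated. The recovery in the measured libraries is therefore not known from it. The comparison and gene lists were chosen with earlier results of these data known. Genes were named if past the threshold, next in order of p (10), extreme in fold change (5 each way), among key genes, or among list members of smallest p or given role; some list members are counted but not reported here by name. Promoters are from RefSeq, without those on chromosome 18.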

Additional observations from a re-analysis of the deposited data

How the results depend on the processing

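The count of genes changed by diet (11) was 23 with no filter on low counts, 66 with DESeq2, 47 with limma-voom and sample quality weights, 18 with the replicate block by replicate number, and 0 in a test for a change above 1.5-fold, where 186 were at an unadjusted p under 0.05. It was 7 to 25 when each library was left out in turn, 7 without chow 0 h replicate 2 and 25 without HFD 24 h replicate 2. An alternative added after seeing the data used the 0 h libraries alone without HFD replicate 3 and gave 25 genes, without Irf7 and Zbp1. The count of higher genes (0) was 1 with no filter, 9 with DESeq2, 1 with limma-voom, 13 with quality weights, 1 with the 6 libraries at 0 h alone, 1 with the label number as a random effect, 5 in the added alternative, and 0 to 2 when each library was left out. With each library left out, the median of interferon-stimulated genes was -0.543 to -0.352, the lowest without HFD 0 h replicate 2, and that of sterol genes -1.055 to -0.626, the highest without that library. The interferon-stimulated response element was in 41.5% of interferon-stimulated genes within 150 bases before the start, against 1.9% of tested genes. The cause of these shifts was not tested. The 11 called genes stayed below 0 in all 27 alternatives, which could hardly come out otherwise, since their diets did not overlap. Their calls varied more: Cfb, Ccl5, Acod1, Oas3 and Rtp4 passed in 26 of the 27 alternatives, but Zbp1 in 18 and Oasl2 in 10. Genes with fold changes near 0 (G6pdx, Tlr4, Tnf, Fdft1, Ggps1 and Srebf1) changed sign under some, as did list medians near 0, such as those of interferon signalling and MHC class II genes (0.014 and 0.024 with quality weights). The deviations of same-numbered chow and HFD libraries from their group means had correlations of -0.139, -0.012 and -0.048, against -0.047 to 0.125 in the other pairs. With 3 libraries a group, and HFD replicate 3 standing apart, this cannot decide whether the numbers pair them. The label number shared by 0 h and 24 h libraries (correlation 0.171) was fitted as a block with limma-voom and gave 8 calls, as did limma-voom without it, both without Ifi27l2a, Micall2, Oasl2 and Zbp1. The depth of HFD replicate 3 limits genes near 1 CPM.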
